A study of Mus musculus with 24 samples.

Results

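The genes described here are 10 F-box and WD-40 genes that lie next to each other on mouse chromosome 9 and are expressed in oocytes: Fbxw13, Fbxw14, Fbxw15, Fbxw16, Fbxw18, Fbxw19, Fbxw20, Fbxw21, Fbxw22 and Fbxw28. They were chosen by name, as the listed rows found in the read count files, and all 10 were present among 55291 gene rows. An F-box protein is the exchangeable subunit of an SCF ubiquitin ligase, a complex of Skp1, Cullin 1 and a RING protein. The F-box binds Skp1, while the WD-40 repeats fold into a propeller that holds the protein to be ubiquitinated. The chromosome 9 array is a rodent expansion of this family, known mainly from the transcripts that growing oocytes store for the egg and the early embryo. Most of such stored maternal transcripts are degraded around the 2-cell stage, when transcription of the embryo's own genome starts. Fbxw15 is known as a receptor for the histone acetyltransferase KAT7, whereas the substrates of most other members are less well described.

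The study asked what the transcripts of MERVL, an endogenous retrovirus that is transcribed in a burst at the 2-cell stage, do in mouse preimplantation embryos. Zygotes from matings of B6D2F1 females and males 8 weeks old (strain BDF2 in the labels) received 20 µM antisense oligonucleotide (ASO) in the male pronucleus. MERVL-KD embryos received a mixture of 3 ASOs against MERVL and control embryos a scrambled ASO, so that all embryos were injected. Total RNA was sequenced from 2-cell embryos collected at 1.5 days post coitum and from 4-cell and 8-cell embryos, which the labels both place at 2.5 days. Each of the 6 groups (Ctrl 2C, MERVL-KD 2C, Ctrl 4C, MERVL-KD 4C, Ctrl 8C, MERVL-KD 8C) had 2 libraries of 30 pooled embryos without zona pellucida. Blastomeres of an embryo were not separated.

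The 12 libraries held 28167085 to 41482526 counts. The internal MERVL family took 1.07% to 6.57% of the counts in control and 0.0278% to 0.157% in MERVL-KD libraries, so the target of the ASOs was lower in each library labelled MERVL-KD. Markers of cumulus or granulosa cells (8 genes) summed to at most 4.05 CPM (counts per 1000000 counts of a library) in any library, with 1 to 6 of the 8 at 0, and those of sperm (5 genes) to at most 1.83 CPM, with 1 to 4 of the 5 at 0. In 2-cell libraries the 7 oocyte markers summed to 1074 to 1218 CPM in control and 942 to 1039 CPM in MERVL-KD embryos. The 6 markers of 8-cell embryos summed to 60.7 to 68.3 CPM and 79.1 to 91.9 CPM there. For the 5 markers of 2-cell embryos the sums were 366 to 466 CPM and 292 to 343 CPM. At the later stages these lists summed to 109 to 168, 243 to 293 and 54.4 to 105 CPM, in that order. The study reports a developmental delay of MERVL-KD embryos and collected embryos by cleavage stage, which was checked under the microscope. Embryos of the same stage could therefore be slow ones in control and typical ones in MERVL-KD libraries. Whether the conditions differed in developmental timing within a stage was not tested.

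All 10 members were annotated on the minus strand of chromosome 9 in GRCm38, within chr9:109139447-109702700, a span of 563 kb. Along rising coordinates the order was Fbxw21, Fbxw13, Fbxw20, Fbxw14, Fbxw28, Fbxw22, Fbxw16, Fbxw19, Fbxw15 and Fbxw18. The same span held Fbxw23, Fbxw24 and Fbxw25. Fbxw26 and Fbxw27, which lay just beyond its end and were added after their values were seen, completed a run of 15 Fbxw rows over 651 kb, all 15 on the minus strand.

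Promoter windows of 300 bases (250 before to 50 after the annotated start, RefSeq, GRCm38.p6) matched 8 of the 10 members; Fbxw13 and Fbxw22 had no entry. The stretches printed next are shown because they hold 18 bases, in capitals, that all but 1 of these windows share letter for letter (1 of 2 such runs of that length), with 12 bases on either side, 5′ to 3′ on the strand of the gene.
Fbxw21: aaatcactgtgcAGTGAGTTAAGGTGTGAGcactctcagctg
Fbxw20: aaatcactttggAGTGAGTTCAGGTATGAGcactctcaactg
Fbxw14: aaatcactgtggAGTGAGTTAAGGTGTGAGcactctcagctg
Fbxw28: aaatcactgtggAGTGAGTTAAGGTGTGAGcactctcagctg
Fbxw16: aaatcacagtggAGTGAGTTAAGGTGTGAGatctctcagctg
Fbxw19: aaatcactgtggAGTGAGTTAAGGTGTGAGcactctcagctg
Fbxw15: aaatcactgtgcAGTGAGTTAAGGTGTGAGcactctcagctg
Fbxw18: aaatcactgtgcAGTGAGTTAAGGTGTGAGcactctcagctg
The run began 163 to 207 bases before the start in the 7 windows that held it exactly, and the closest stretch of Fbxw20 differed from it by 2 edits and began 162 bases before the start. Of 32851 promoter windows in the table, 11 held the run on either strand. They belonged to 10 genes, all of them Fbxw rows of the array: the 7 members and Fbxw24, Fbxw25 and Fbxw26. The 8 windows were 65.3% to 97.0% identical to each other (median 83.0% over 28 pairs), against 47.7% to 55.9% (median 51.3%) to the promoters of 7 Fbxw genes elsewhere in the genome. To the windows of 4 other Fbxw rows of the array, 3 of which held the run, identity was 48.8% to 94.7% (median 84.0%). The likeness thus did not extend to every row of the array.

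The whole windows of the most similar pair, Fbxw28 and Fbxw14, and of Fbxw19, the member with the highest level per length in control 8-cell embryos, show how far this likeness extends; capitals again mark the shared run.
Fbxw28: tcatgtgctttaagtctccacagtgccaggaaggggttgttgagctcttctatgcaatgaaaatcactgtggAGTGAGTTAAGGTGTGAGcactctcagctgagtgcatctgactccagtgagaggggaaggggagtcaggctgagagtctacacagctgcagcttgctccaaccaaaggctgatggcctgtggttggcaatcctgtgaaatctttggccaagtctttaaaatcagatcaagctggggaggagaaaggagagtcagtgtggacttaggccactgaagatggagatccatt
Fbxw14: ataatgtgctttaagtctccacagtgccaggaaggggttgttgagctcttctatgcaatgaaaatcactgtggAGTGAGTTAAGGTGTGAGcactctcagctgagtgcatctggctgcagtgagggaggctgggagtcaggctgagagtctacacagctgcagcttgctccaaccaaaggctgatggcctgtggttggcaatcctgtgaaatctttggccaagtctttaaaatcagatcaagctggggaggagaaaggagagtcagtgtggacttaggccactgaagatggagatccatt
Fbxw19: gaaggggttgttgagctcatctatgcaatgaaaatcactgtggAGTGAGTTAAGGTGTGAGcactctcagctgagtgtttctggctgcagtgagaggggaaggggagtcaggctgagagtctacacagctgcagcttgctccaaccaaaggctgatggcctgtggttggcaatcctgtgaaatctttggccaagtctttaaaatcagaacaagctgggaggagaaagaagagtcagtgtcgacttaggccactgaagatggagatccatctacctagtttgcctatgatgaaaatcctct
These windows lie at chr9:109339610-109339909 (Fbxw28), chr9:109287627-109287926 (Fbxw14) and chr9:109495805-109496104 (Fbxw19), minus strand. The letters CANNTG, the general form of an E-box, occurred on either strand in all 8 windows and in 72.3% of all windows. The homeobox letters TAATTA and TAATTG and the TATA box letters TATAAA occurred in 0 of the 8 windows, against 5.29%, 8.0% and 13.6% of all windows. A match of letters is not evidence of binding.

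The transcripts of the members were likewise similar. Between the longest protein-coding transcripts in GENCODE (release M21, 1483 to 2242 bases), identity ranged from 59.0% for Fbxw18 and Fbxw21 to 89.3% for Fbxw14 and Fbxw22, with a median of 73.7% over 45 pairs. Only uniquely aligned reads were counted, and reads were 150 bases long. In 8 of the 10 members no 150-base stretch of the transcript recurred exactly in a transcript of another Fbxw row of the array. In Fbxw14 30.2% and in Fbxw28 36.0% of the 150-base stretches did, so the levels of these members could be underestimated.

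Among the sequences of the 3 MERVL ASOs, 1 site with up to 2 mismatches was found in the span of the members. It had 2 mismatches, lay at chr9:109198914-109198933, 2.94 kb from Fbxw13 and outside every annotated row, and could pair with RNA of the plus strand. The transcripts of the members differed from the targets of the 3 ASOs by at least 6 mismatches, and the scrambled ASO had no site within 2 mismatches in the span.

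Control 2-cell embryos contained transcripts of each member. The level per length (CPM per kilobase, the mean of 2 libraries ± SD) was highest for Fbxw28 at 16.0 ± 0.228, followed by Fbxw15 at 13.6 ± 0.209 and Fbxw14 at 13.3 ± 0.886. Fbxw18 (10.4 ± 2.32) and Fbxw19 (9.96 ± 0.00333) formed a middle pair. Fbxw21 (6.46 ± 0.974), Fbxw22 (5.24 ± 0.431), Fbxw16 (4.97 ± 0.0605) and Fbxw20 (4.56 ± 0.908) were lower. Fbxw13, at 1.67 ± 0.0169, was the lowest. In this order the libraries of neighbours overlapped for Fbxw15 and Fbxw14, for Fbxw18 and Fbxw19, and for Fbxw22, Fbxw16 and Fbxw20, so these could not be ranked. The order also depends on the length used, which was that of the row in the count files. It was 3487 bases for Fbxw19 and 1951 for Fbxw28. The longest protein-coding transcripts of these genes have 1483 and 1678 bases. Not divided by length, the mean was 34.7 CPM for Fbxw19 and 31.1 CPM for Fbxw28. Fbxw24, which is not a member, exceeded every member in the control 2-cell libraries with 55.2 and 50.4 CPM per kilobase.

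Summed over the 10 members, the CPM of a library were 180.5 and 175.6 in control 2-cell embryos, 59.0 and 62.2 in control 4-cell embryos and 41.4 and 47.1 in control 8-cell embryos. In MERVL-KD embryos the same sums were 189.9 and 196.4 in 2-cell, 66.1 and 58.5 in 4-cell and 57.8 and 42.8 in 8-cell libraries. Each 2-cell library thus lay above each later library, while control and MERVL-KD libraries overlapped at the 4-cell and the 8-cell stage. CPM are shares of a library's counts, and in libraries of whole embryos fewer cells with a transcript and less of it per cell cannot be told apart.

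**Figure D1:**
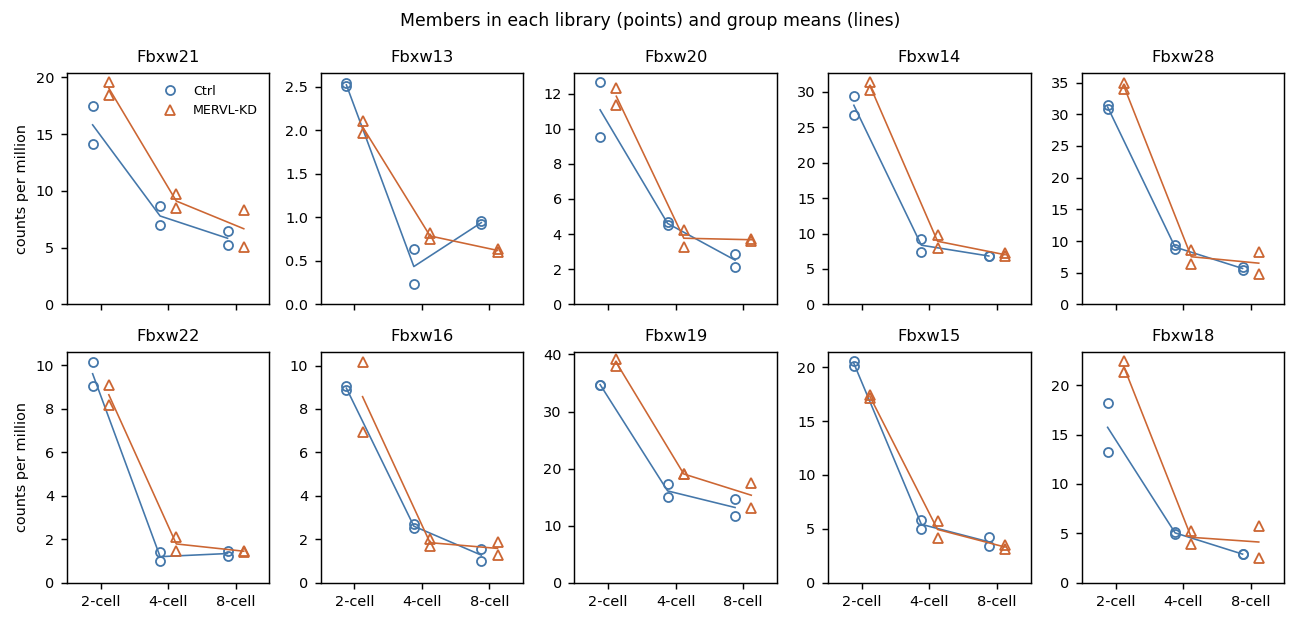
CPM (y axis, from 0, scaled for each gene) of the 10 members at each stage (x axis) in control (circles) and MERVL-KD libraries (triangles), 2 points a group, with lines through the group means. Every member is highest at the 2-cell stage, and from the 4-cell stage on Fbxw19 has at least 11.7 CPM in every library while Fbxw13 has at most 0.961 CPM.

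The step from the 2-cell to the 4-cell stage in control embryos asked how far the level of these transcripts changed over the next cell division. Stored and newly made transcripts were not told apart. All 10 members fell, by 1.19 to 3.17 on the log2 scale (edgeR's quasi-likelihood test in a fit of all 12 libraries, adjusted p under 0.05 by Benjamini-Hochberg over all rows and at least 2-fold). In the same comparison 24.3% of 24040 gene rows tested were called lower and 20.7% higher, and the median change was -1.93 for the members and -0.06 over all gene rows.

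Fbxw22 fell most. It had 10.2 and 9.05 CPM in the control 2-cell and 0.981 and 1.42 CPM in the control 4-cell libraries, a 9.02-fold fall (log2 change -3.17, SE 0.34, edgeR adjusted p 4.88e-08). Fbxw13, with 2.50 and 2.54 CPM before and 0.231 and 0.639 CPM after the step, fell 6.60-fold (-2.72, SE 0.56, edgeR adjusted p 0.000287). Its lowest library held 8 counts, which makes it the least precisely measured of the members.

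The 95% intervals of the most abundant members per length, Fbxw28, Fbxw15 and Fbxw14, overlapped. Fbxw28 went from 31.5 and 30.8 CPM to 9.37 and 8.70 CPM (3.87-fold; log2 change -1.95, SE 0.21, edgeR adjusted p 5.60e-08). Fbxw15 went from 20.6 and 20.1 CPM to 4.99 and 5.86 CPM, a 4.22-fold fall, and Fbxw14 from 26.8 and 29.4 CPM to 9.29 and 7.42 CPM, a 3.78-fold fall. Fbxw16 (9.04 and 8.88 CPM, then 2.51 and 2.70 CPM) and Fbxw18 (18.2 and 13.2 CPM, then 5.16 and 4.93 CPM) fell 3.87-fold and 3.48-fold. No library of one stage overlapped those of the other for any of these genes.

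The smallest falls were those of Fbxw20, Fbxw19 and Fbxw21. Fbxw20 had 9.51 and 12.6 CPM at the 2-cell and 4.53 and 4.69 CPM at the 4-cell stage (2.72-fold). Fbxw19 had 34.7 CPM in both control 2-cell libraries and 14.97 and 17.2 CPM after the step (2.43-fold; log2 change -1.28, SE 0.17, edgeR adjusted p 9.16e-07). Fbxw21 had 17.5 and 14.1 CPM, then 6.95 and 8.63 CPM (2.28-fold; -1.19, SE 0.23, edgeR adjusted p 0.000141). The 95% interval of Fbxw22 (-3.87 to -2.47) lay wholly below those of Fbxw19 (-1.63 to -0.93) and Fbxw21 (-1.67 to -0.71), so the members did not fall by the same factor.

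In MERVL-KD embryos all 10 log2 changes over this step were below 0. They ran from -2.14 to -0.88 with a median of -1.67, against -0.06 over all gene rows. Of the 10 members, 7 were called lower, beside 23% of gene rows, and 9 had an adjusted p under 0.05 with a fall of any size (edgeR, Benjamini-Hochberg), beside 27.3% of gene rows. The 3 not called were Fbxw19 (1.84-fold, adjusted p 9.64e-05) and Fbxw21 (1.91-fold, adjusted p 0.00146), which missed the 2-fold threshold, and Fbxw13 (2.35-fold, adjusted p 0.0532), which missed that on the adjusted p from edgeR. With other scalings, filters or tools 7 to 10 members were called.

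The MERVL-KD libraries of these 3 genes were nevertheless apart between the stages. Fbxw19 had 39.1 and 38.1 CPM at the 2-cell stage and 19.1 and 19.0 CPM at the 4-cell stage. Fbxw21 had 18.5 and 19.6 CPM, then 9.72 and 8.49 CPM, and Fbxw13 had 2.11 and 1.97 CPM, then 0.757 and 0.816 CPM. The members with the largest falls in MERVL-KD embryos were Fbxw22 (8.19 and 9.10 CPM, then 2.12 and 1.45 CPM; 4.42-fold), Fbxw18 (21.3 and 22.4 CPM, then 5.24 and 3.96 CPM; 4.34-fold), Fbxw16 (4.22-fold) and Fbxw28 (4.19-fold). Fbxw15, Fbxw14 and Fbxw20 fell 3.19-fold, 3.16-fold and 2.85-fold.

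**Figure D2:**
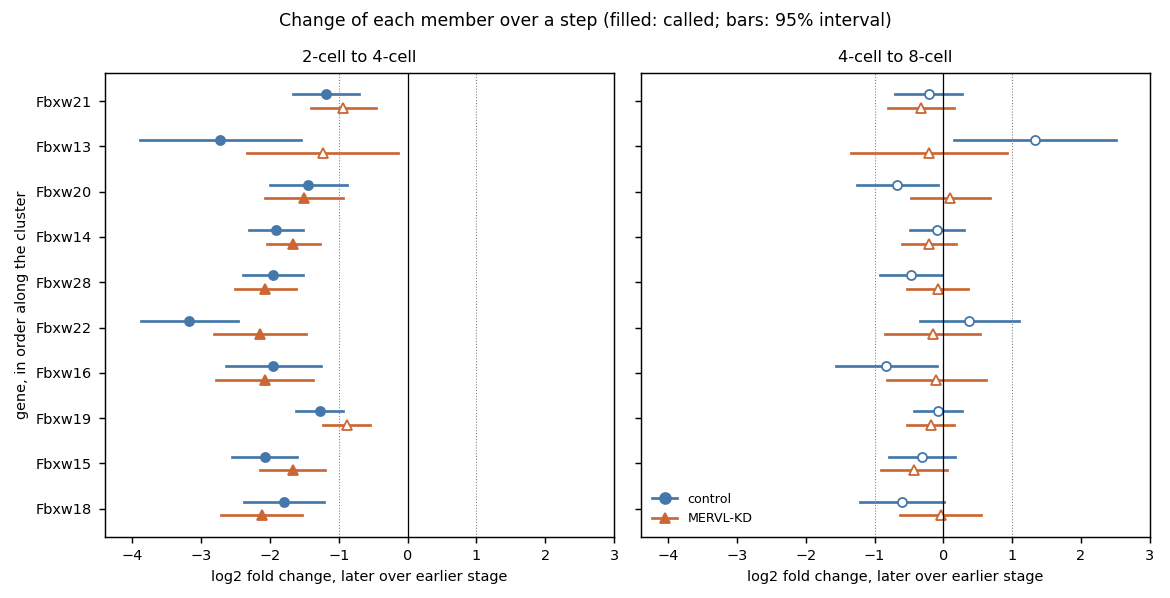
Log2 fold change (x axis) of each member (y axis, in order along the cluster) from the 2-cell to the 4-cell stage (left) and from the 4-cell to the 8-cell stage (right), in control (circles) and MERVL-KD embryos (triangles), with 95% intervals as bars; filled symbols were called, dotted lines mark 2-fold. On the left every point lies below 0; on the right no point is filled.

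Whether the fall differed between MERVL-KD and control embryos was tested as an interaction. No member was called, beside 2.3% of gene rows, and the adjusted p values ranged from 0.237 to 0.963 (edgeR, Benjamini-Hochberg); 1 member, Fbxw22, had an unadjusted p under 0.05, as had 17.3% of gene rows. The difference for Fbxw22 was 1.03 on the log2 scale in the direction of a smaller fall in MERVL-KD embryos (95% interval 0.09 to 1.97), and that for Fbxw13 was 1.49 (-0.09 to 3.06). The intervals of 5 members, Fbxw21, Fbxw20, Fbxw14, Fbxw28 and Fbxw19, lay within a 2-fold difference in either direction. For the other 5 a difference above 2-fold was within the interval. Of the 10 differences 6 were above 0 and 4 below, with a median of 0.26, against 0.05 over all gene rows. With library size alone as the scale these medians were -0.04 and -0.25.

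From the 4-cell to the 8-cell stage none of the members was called in either condition, beside 1.56% of gene rows in control and 1.64% in MERVL-KD embryos (edgeR). The labels give both stages the same age, so this step compares slower with faster embryos and not an earlier with a later time. What it would be between embryos followed over time was not tested. In control embryos 8 of 10 changes were below 0 (median -0.26, all gene rows -0.01), 4 members had an unadjusted p under 0.05, beside 19.3% of gene rows, and the adjusted p values ran from 0.18 to 0.861. Of those 4, Fbxw16 (2.51 and 2.70 CPM, then 1.55 and 0.991 CPM), Fbxw20 and Fbxw28 were lower and Fbxw13 was higher at the 8-cell stage. In MERVL-KD embryos 9 changes were below 0 (median -0.17, all gene rows -0.04), 0 had an unadjusted p under 0.05, beside 18.2% of gene rows, and the lowest adjusted p was 0.345. No member was called for a difference of this step between the conditions (0 called beside 0.42% of gene rows; 0 with an unadjusted p under 0.05, beside 11.4%; lowest adjusted p 0.453 by edgeR).

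At the 8-cell stage control embryos still held 14.0% (Fbxw22) to 37.98% (Fbxw19) of the mean CPM of the 2-cell stage. MERVL-KD embryos held 16.8% (Fbxw22) to 39.7% (Fbxw19). In both conditions Fbxw21 (36.8% and 35.0%) stood next to Fbxw19 among the members with more than 100 counts in every library. Fbxw13, at 37.2% and 30.4%, had only 22 to 32 counts in the 8-cell libraries. These percentages use library totals alone, whereas the fits above also scale by TMM factors. The factors were 1.19 and 1.16 in MERVL-KD 2C and 1.01 and 0.940 in MERVL-KD 8C libraries. They were 0.936 and 0.880 in Ctrl 2C and 0.874 and 0.897 in Ctrl 8C libraries. With them the MERVL-KD percentages would be higher, so the likeness of the conditions depends on the scale.

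Unequal falls changed the make-up of the cluster's transcripts. On the scale of CPM per kilobase, Fbxw28 accounted for 18.5% ± 0.254 of the summed level of the members in control 2-cell embryos (SD, n = 2) and for 14.6% ± 0.0847 in control 8-cell embryos. Fbxw19 went from 11.3% and 11.8% of the sum in the control 2-cell libraries to 15.9% and 17.5% at the 4-cell and 17.9% and 20.1% at the 8-cell stage, and had the highest mean there. In MERVL-KD embryos the share of Fbxw19 went from 12.3% and 11.5% to 18.4% and 21.3%, then 19.6% and 19.9%. Fbxw21 went from 8.15% and 6.84% to 10.5% and 12.5% at the control 4-cell stage, whereas Fbxw22 went from 6.31% and 5.85% to 1.98% and 2.74%. These shares sum to 100% in a library, so that 1 member's gain is another's loss, and they were not tested. Like the levels per length, they depend on the row lengths used.

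**Figure D3:**
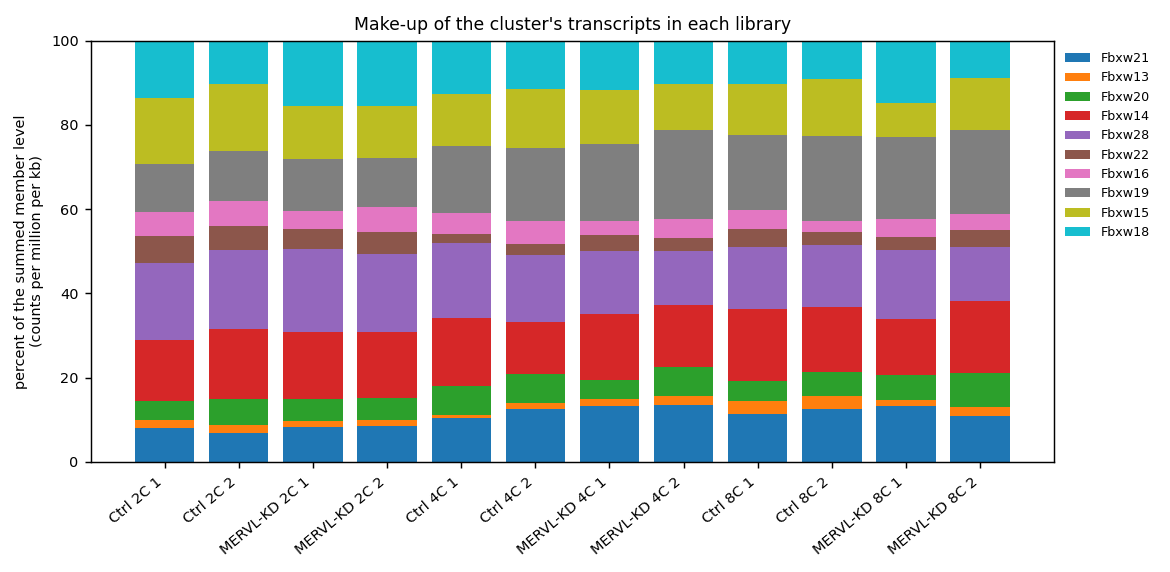
Share (y axis, percent of the summed CPM per kilobase of the 10 members) of each member, as stacked colours, in each of the 12 libraries (x axis). The Fbxw19 band widens from at most 12.3% in 2-cell libraries to at least 15.9% in every later library.

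MERVL-KD against control was compared at each stage to see whether loss of MERVL RNA altered the members. No member was called in 2-cell embryos (beside 6.61% of gene rows called in either direction), 4-cell embryos (4.54%) or 8-cell embryos (1.7%). The median log2 changes of the members were -0.18, -0.09 and 0.06 at the 3 stages, against 0.01, 0.03 and 0.01 over all gene rows tested. Unadjusted p values were under 0.05 for 2 members at the 2-cell stage, beside 27% of gene rows, and for 0 at the 4-cell and the 8-cell stage, beside 25.1% and 19.5% (edgeR's quasi-likelihood test on the 4 libraries of a stage). DESeq2 also called 0 members at each stage.

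At the 2-cell stage the lowest adjusted p belonged to Fbxw15. It had 20.6 and 20.1 CPM in control and 17.1 and 17.4 CPM in MERVL-KD libraries, a log2 change of -0.53 (SE 0.15, 95% interval -0.84 to -0.21, edgeR adjusted p 0.0272), under 2-fold. Adjusted p values under 0.05 with a lower level were found for 7.39% of gene rows in this comparison. The adjusted p of Fbxw15 ran from 0.0143 to 0.282 over the alternatives; with library size alone as the scale it was 0.282 at a log2 change of -0.24, and without MERVL-KD 2C replicate 1 it was 0.0657, without Ctrl 2C replicate 1 0.071 and without Ctrl 2C replicate 2 0.0988.

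Fbxw22, the other member with an unadjusted p under 0.05, had 10.2 and 9.05 CPM in control and 8.19 and 9.10 CPM in MERVL-KD 2-cell libraries, which overlapped (log2 change -0.44, SE 0.19, edgeR adjusted p 0.158). Fbxw18 had 18.2 and 13.2 CPM in control and 21.3 and 22.4 CPM in MERVL-KD libraries (0.19, SE 0.17, edgeR adjusted p 0.509), and was the only member with a fitted change above 0. Fbxw19, with 34.7 CPM in both control and 39.1 and 38.1 CPM in MERVL-KD libraries, had a fitted change of -0.14 (SE 0.12, edgeR adjusted p 0.525). CPM and fitted change have opposite signs here because CPM use the library totals alone and the fit adds TMM factors; with library size alone the fitted change of Fbxw19 was 0.15.

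The direction of the members as a group at the 2-cell stage thus depended on the scale. With TMM 9 of 10 changes were below 0, and with library size alone 4 were, with a median of 0.11. Library size alone moved the median over all gene rows to 0.30. Relative to that median the members stood at -0.19 on either scale.

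At the 4-cell stage 5 changes were below 0 and 5 above, from -0.55 for Fbxw16 (2.51 and 2.70 CPM in control, 1.70 and 1.99 CPM in MERVL-KD libraries) to 0.81 for Fbxw13 (0.231 and 0.639 CPM, then 0.757 and 0.816 CPM). The adjusted p values ran from 0.427 to 0.97. At the 8-cell stage 4 were below 0 and 6 above, from -0.72 for Fbxw13 (0.919 and 0.961 CPM in control, 0.638 and 0.603 CPM in MERVL-KD libraries) to 0.42 for Fbxw20 (2.15 and 2.88 CPM, then 3.62 and 3.74 CPM), with adjusted p values from 0.514 to 0.989 (edgeR). Fbxw18 had 5.74 and 2.51 CPM in the MERVL-KD and 2.92 and 2.88 CPM in the control 8-cell libraries, so that the control libraries lay between the others.

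A 2-fold difference in either direction lay outside the 95% interval of 9 members at the 2-cell stage, Fbxw13 being the exception (-1.30 to 0.12), and of 6 members at the 4-cell stage (Fbxw21, Fbxw14, Fbxw28, Fbxw19, Fbxw15 and Fbxw18) and 6 at the 8-cell stage (Fbxw21, Fbxw14, Fbxw28, Fbxw22, Fbxw19 and Fbxw15). For the remaining members of a stage a 2-fold difference lay within the interval in at least 1 direction.

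**Figure D4:**
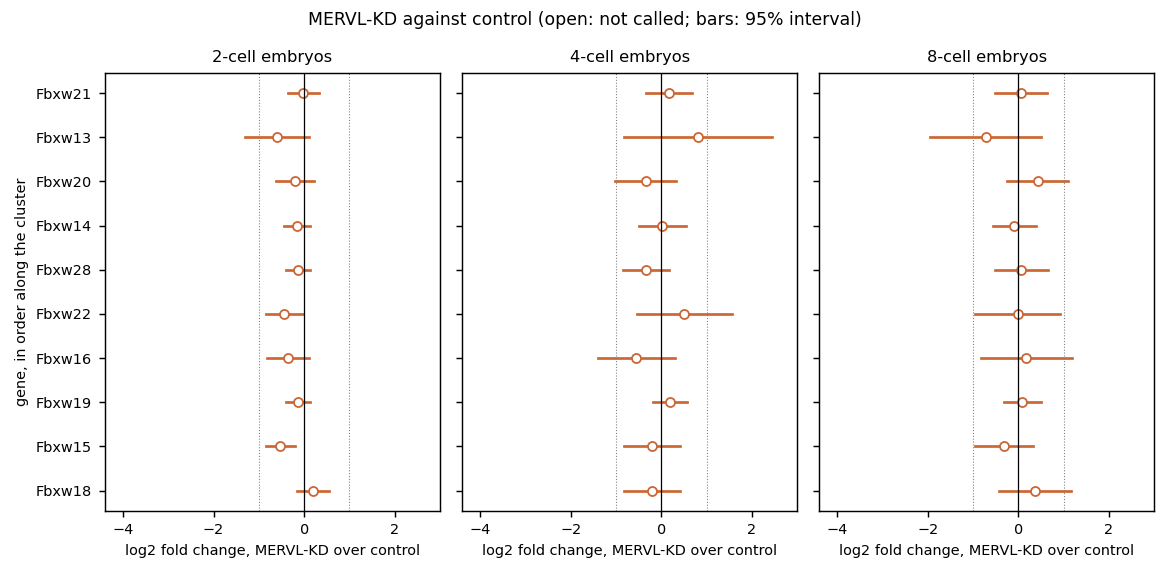
Log2 fold change of MERVL-KD over control (x axis) for each member (y axis, in order along the cluster), with 1 panel a stage, with 95% intervals as bars; open symbols were not called, dotted lines mark 2-fold. All 30 symbols are open, and the widest bars belong to Fbxw13.

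Over the 12 libraries the members followed each other. Pearson's r between the log2 CPM of any pair ran from 0.705 to 0.986, with a median of 0.947 over 45 pairs. The libraries are shared by all genes and fall into a 2-cell set and a later set, so r mainly describes that contrast. Against the mean z-scored profile of the members, r was 0.988 for Fbxw28 and Fbxw14 and 0.834 for Fbxw13.

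Among 23991 candidate gene rows outside the span, the 5 with the pattern closest to this mean profile were Accsl (r = 0.998), Dnal4, Psd3, Bcar3 and Trps1 (r = 0.997 or 0.998 for each, 12 libraries). Accsl had 298.2 and 266 CPM in control 2-cell, 17.3 and 22.5 CPM in control 4-cell and 12.5 and 10.9 CPM in control 8-cell libraries. It fell by 4.00 on the log2 scale from the 2-cell to the 4-cell stage in control embryos, more than any member. These 5 genes were chosen by their likeness, so their fall is no separate result.

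The other Fbxw rows of the array shared the fall. All 5 were called lower from the 2-cell to the 4-cell stage in control embryos, beside 24.3% of gene rows. Their log2 changes ran from -3.48 for Fbxw23 (SE 0.26) to -1.64 for Fbxw26 (SE 0.24), with Fbxw24 at -1.93 (SE 0.13). Fbxw23, which GENCODE lists as a transcribed pseudogene, had 28.1 and 23.7 CPM before and 2.22 and 3.02 CPM after this step. In MERVL-KD embryos 4 of the 5 were called, beside 23% of gene rows, Fbxw25 being the exception (1.91-fold, edgeR adjusted p 0.0723). Fbxw23 was also called lower from the 4-cell to the 8-cell stage in MERVL-KD embryos (-1.23, SE 0.27, edgeR adjusted p 0.0128). In that step 1.64% of gene rows were called in either direction. None of the 5 was called between MERVL-KD and control at the 2-cell, 4-cell or 8-cell stage, beside 6.61%, 4.54% and 1.7% of gene rows.

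**Figure D5:**
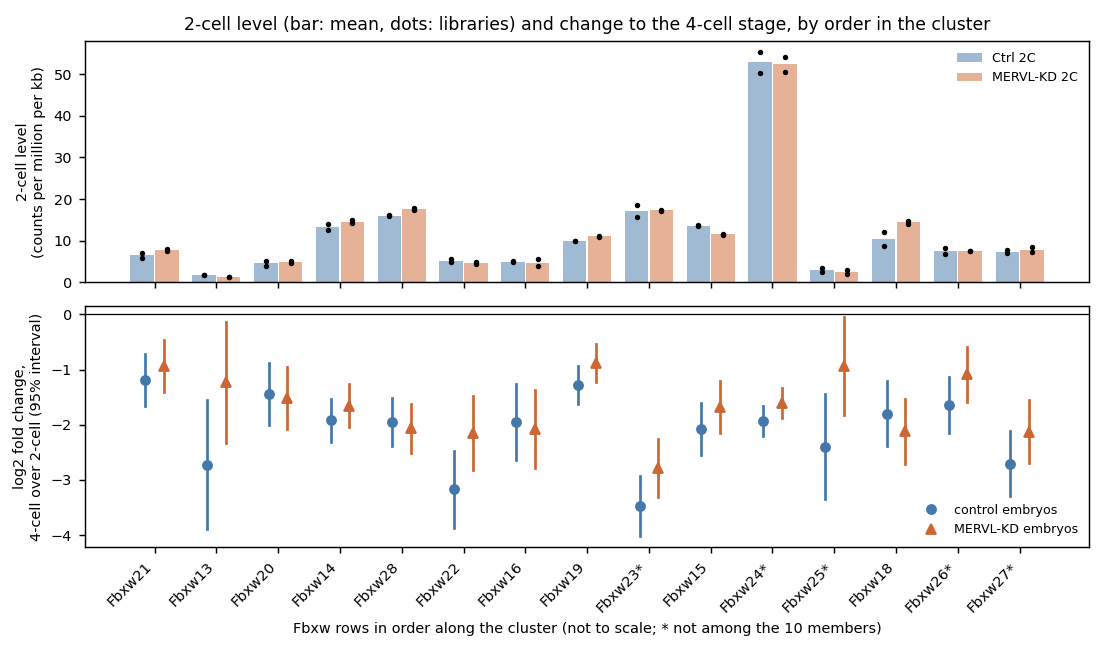
Top, 2-cell level (y axis, CPM per kilobase; bars are means, dots the 2 libraries) of the 15 Fbxw rows in order along the array (x axis, not to scale) in control and MERVL-KD embryos; bottom, log2 fold change from the 2-cell to the 4-cell stage with 95% intervals. Fbxw24 is the highest at the 2-cell stage, at 55.2 and 50.4 CPM per kilobase in control libraries, and all 15 rows lie below 0 in the lower panel.

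The genes around the array did not move as a block with it. Of 53 other gene rows within 500 kb of the members' span, 34 were tested in the control step from 2-cell to 4-cell embryos. Of these, 14 were called higher, beside 20.7% of gene rows, and 6 lower, beside 24.3% (median 1.33). Arih2, a ring-between-ring ubiquitin ligase and the neighbour with the highest level, rose by 1.94 on the log2 scale (SE 0.10, edgeR adjusted p 9.64e-13). Smarcc1, a subunit of BAF chromatin remodelling complexes, had a log2 change of 0.83 (SE 0.09), under 2-fold. Over the same step in MERVL-KD embryos 12 neighbours were called higher and 7 lower, the latter beside 23% of gene rows. The median of the neighbours was 0.28, against -0.06 over all gene rows. For the difference of this step between the conditions their median was -0.25, and 1 was called lower, beside 2.3% of gene rows called in either direction. Between MERVL-KD and control embryos 1 neighbour was called lower and 4 higher of 27 tested at the 2-cell stage, beside 6.61% of gene rows in either direction. At the 4-cell stage 1 of 32 was called higher (beside 4.54%), and at the 8-cell stage 0 of 30 were called (beside 1.7%).

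F-box and WD-40 genes elsewhere in the genome went both ways in the same step. Of 11 listed genes 10 had a row. Of these, 3 were called lower, beside 24.3% of gene rows, and 1 higher, beside 20.7% (median -0.55). Fbxw7, a receptor for cyclin E and MYC, had a log2 change of -1.43 (SE 0.24), Fbxw4 of -3.31 (SE 0.40) and Fbxw5 of -1.96 (SE 0.34), while Btrc, the receptor for β-catenin, rose by 2.09 (SE 0.15). Between MERVL-KD and control 2-cell embryos Fbxw9 rose by 1.20 (SE 0.16, edgeR adjusted p 8.38e-05), and no other gene of this list was called at any stage.

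A list of 21 genes of SCF ligases, with subunits, ubiquitin-conjugating enzymes, regulators and other F-box genes, summed to 3329 to 3635 CPM in 2-cell and 2231 to 2504 CPM in later libraries. From 2-cell to 4-cell control embryos 7 of the 21 were called lower, beside 24.3% of gene rows, and 4 higher, beside 20.7% (median -0.03). Cul1, the scaffold of the complex, fell by 1.75 (SE 0.09), and the ubiquitin-conjugating enzymes Ube2d3 and Ube2d2a fell by 2.09 (SE 0.12) and 2.60 (SE 0.10), whereas the RING subunit gene Rnf7 rose by 1.80 (SE 0.13). Ube2r2 was higher in MERVL-KD than in control embryos at the 2-cell (log2 change 1.71, SE 0.27) and the 4-cell stage (1.10, SE 0.22), and no other gene of the list was called between the conditions.

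Genes known for expression in the oocyte gave the closest comparison by origin. Of 28 listed genes 27 had a row. From 2-cell to 4-cell control embryos 22 of these were called lower, beside 24.3% of gene rows, and 1 higher, beside 20.7%. Their median was -2.01, near the -1.93 of the members. Zbed3, a member of the subcortical maternal complex, fell by 6.05 (SE 0.57), and Btg4, an adaptor of the CCR4-NOT deadenylase that acts in maternal mRNA clearance, fell by 4.81 (SE 0.19). The secreted factor Bmp15 fell by 4.20 (SE 0.13) and Nlrp4f by 3.20 (SE 0.16). Khdc3, a gene of the same complex as Zbed3, rose by 2.66 (SE 0.28). In MERVL-KD embryos 18 of the 27 were called lower over the same step, beside 23% of gene rows, and 1 higher (median -1.66). For the difference of this step between the conditions 0 of the 27 were called, beside 2.3% of gene rows. The median difference was 0.54, against 0.05 over all gene rows. The oocyte markers moved with the members over this step, and their part in the result was not tested. Between MERVL-KD and control embryos 0 of these genes were called at the 2-cell stage, beside 6.61% of gene rows. Oog1 was called lower at the 4-cell (-1.13, SE 0.15) and the 8-cell stage (-1.02, SE 0.19), beside 4.54% and 1.7% called in either direction.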

How the data were processed

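Total RNA libraries (SMART-Seq Stranded kit, rRNA depleted, paired-end 150 bases) of 6 groups with 2 libraries each were used; 12 ATAC-seq samples of the series were not analysed here. The deposited values are raw read counts: per the labels and the study's methods the authors aligned reads to GRCm38 with STAR 2.5.3a, kept unique alignments and counted GENCODE vM25 genes and RepeatMasker families with featureCounts. Both mates of a pair were mostly counted, since 71.8% to 74.7% of gene rows with 1 to 50 counts had an even count. CPM are counts scaled to a library total of 1000000. Totals of 28167085 to 41482526 counts limit the precision of members with few counts.

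The members, gene lists and tests were chosen with earlier results of these data known. edgeR 4.0.16 (R 4.3.3) with filterByExpr, TMM factors and the robust quasi-likelihood test was fitted to the 4 libraries of a stage for MERVL-KD against control, and to all 12 libraries for stage steps and interactions. Rows were called at a Benjamini-Hochberg adjusted p under 0.05 over all rows tested and at least 2-fold; intervals are 95%. The study names 2 biological replicates a group, and the p values measure the spread between these. Each member, each other Fbxw row between them, the 2 neighbours of highest mean CPM, the 5 rows of closest pattern (log2 CPM, prior count 0.5) and up to 4 called genes a list, by mean CPM, were named; Khdc3, Oog1, Ube2r2, Fbxw9, Fbxw26 and Fbxw27 were named after their values were seen. DESeq2 1.42.0, other scalings, filters and library sets served as alternatives. Scripts were tested on simulated data. Sequences were compared with edlib 1.3.9.post1 in Python 3.11.15. Proteins were not analysed here.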

Additional observations from a re-analysis of the deposited data

How the results depend on the processing

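With 2 libraries a group, small changes of members with few counts could not be resolved, above all of Fbxw13. Over 123 alternative fits, 53 of 1230 member values changed sign and none of those was called under either setting; 7 were not tested, all of Fbxw13 under the filter of 10 counts in every library. In control embryos from 2-cell to 4-cell 9 or 10 members were called lower under every alternative. In MERVL-KD embryos 7 to 10 were, with all 10 called under library size alone and 7 whichever library was left out. Between MERVL-KD and control embryos 0 members were called at any stage and 0 in the interactions, except 1 (Fbxw15) at the 2-cell stage with no fold threshold. The median change at the 2-cell stage moved from -0.18 to 0.11 with library size alone, the scale on which the median of all gene rows moved from 0.01 to 0.30; at the 8-cell stage it was 0.06, and -0.15 to 0.29 when 1 library was left out. With TMM factors in place of library size the summed level of the members was 94.9 in place of 86.1 CPM per kilobase in Ctrl 2C, 79.1 in place of 92.7 in MERVL-KD 2C and 22.4 in place of 19.8 in Ctrl 8C; the cause was not tested beyond the factors themselves. Leaving out 1 library gave 84.4 to 87.8 in Ctrl 2C, 90.9 to 94.6 in MERVL-KD 2C, 27.0 to 28.2 in Ctrl 4C, 25.6 to 29.7 in MERVL-KD 4C, 18.8 to 20.9 in Ctrl 8C and, the widest, 18.9 to 25.7 in MERVL-KD 8C. Deviations of same-numbered libraries from their group means correlated at -0.010 to 0.023, so the replicate numbers were not taken as pairs. The fit with the replicate number as a block called the same number of members as the fit without it: 10 in control and 7 in MERVL-KD embryos from 2-cell to 4-cell, and 0 in every other comparison.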
